A study of Mus musculus with 8 samples.

Results

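Antiviral interferon response genes were followed in astrocyte cultures from Spp1 knockout mice. The genes were those of the authors' deposited table of Spp1 knockout against wild type whose names fit a rule. The rule covers the oligoadenylate synthetases, the Ifi200, Ifit, Ifitm and Schlafen families, interferon receptors, interferon regulatory factors, Stat2, antiviral GTPases, RNA sensors and related effectors. The guanylate-binding proteins and the genes of the major histocompatibility complex were not included. The rule found 46 genes among the 3624 in the table, and not every family it covers is among them. It used no measured value, although every gene in that table had already passed the authors' limits, with adjusted p no higher than 0.0499 and a log2 fold change of 0.58 or more in either direction.

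Knockout cultures came from Spp1-/- pups of the strain B6.129S6(Cg)-Spp1tm1Blh/J (4 samples), and wild-type cultures from C57BL/6 pups (4 samples). Both groups were primary cultured astrocytes from retinas and optic nerves of pups at post natal day 1-3, grown in DMEM/F12 with fetal bovine serum. Spp1 encodes osteopontin, a secreted matrix phosphoprotein and cytokine. Nothing in the labels ties the samples to separate cultures or litters, so the authors' p-values cover the variation among these 8 samples and may reflect technical variation alone.

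The interferon response is the main transcriptional defence of vertebrate cells against viruses. Type I interferon binds the receptor made of Ifnar1 and Ifnar2, and Janus kinases then activate a complex with Stat2 and Irf9 that binds interferon-stimulated response elements (ISRE) in promoters. Interferon gamma acts through Ifngr1 and Ifngr2, and its signal reaches promoters at gamma-activated sites (GAS). Microglia and astrocytes both carry this pathway, and in the retina and optic nerve both can respond to interferon.

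The values analysed were 1 row per gene, although at least the name Tgtp2 recurs, with log2 fold changes of 2.95 and 2.47. There were no values of single samples, so replicates cannot be shown separately and sequencing depth is unknown. Each fold change below is the authors' log2 value, knockout over wild type, with their standard error, and 95% intervals were formed from it. Its direction is not stated and was read from Spp1. A group's implied mean is the normalized count that follows from the authors' overall mean and fold change if both groups weigh the same. For Spp1 the authors' deposited table gave an implied mean of 441 in knockout and 26271 in wild-type cultures, a log2 fold change of -5.90 (standard error 0.11). Y-linked Ddx3y stood at 13.26 (standard error 1.03) in the authors' deposited table, with an implied mean of 0.16 in wild type. Sex, strain background and the deletion cannot be told apart for any gene here.

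Of the 46 genes, 45 were higher and 1 was lower in the knockout in the authors' deposited table. Over the whole table, 54.9% of the listed genes were higher and 45.1% lower. The members had a median log2 fold change of 1.97, against 0.66 over all listed genes, higher and lower together. Over the higher listed genes alone the median was 1.31. The shares of the table that follow are also out of all listed genes, so they mix direction with size. A log2 fold change of at least 1 was listed for 37 members, or 80.4%, against 35.5% of the table, and of at least 2 for 22 members, or 47.8%, against 15.4%. The 95% interval lay wholly above 0.58 for 35 members, or 76.1%, against 32.7% of the table.

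**Figure D1:**
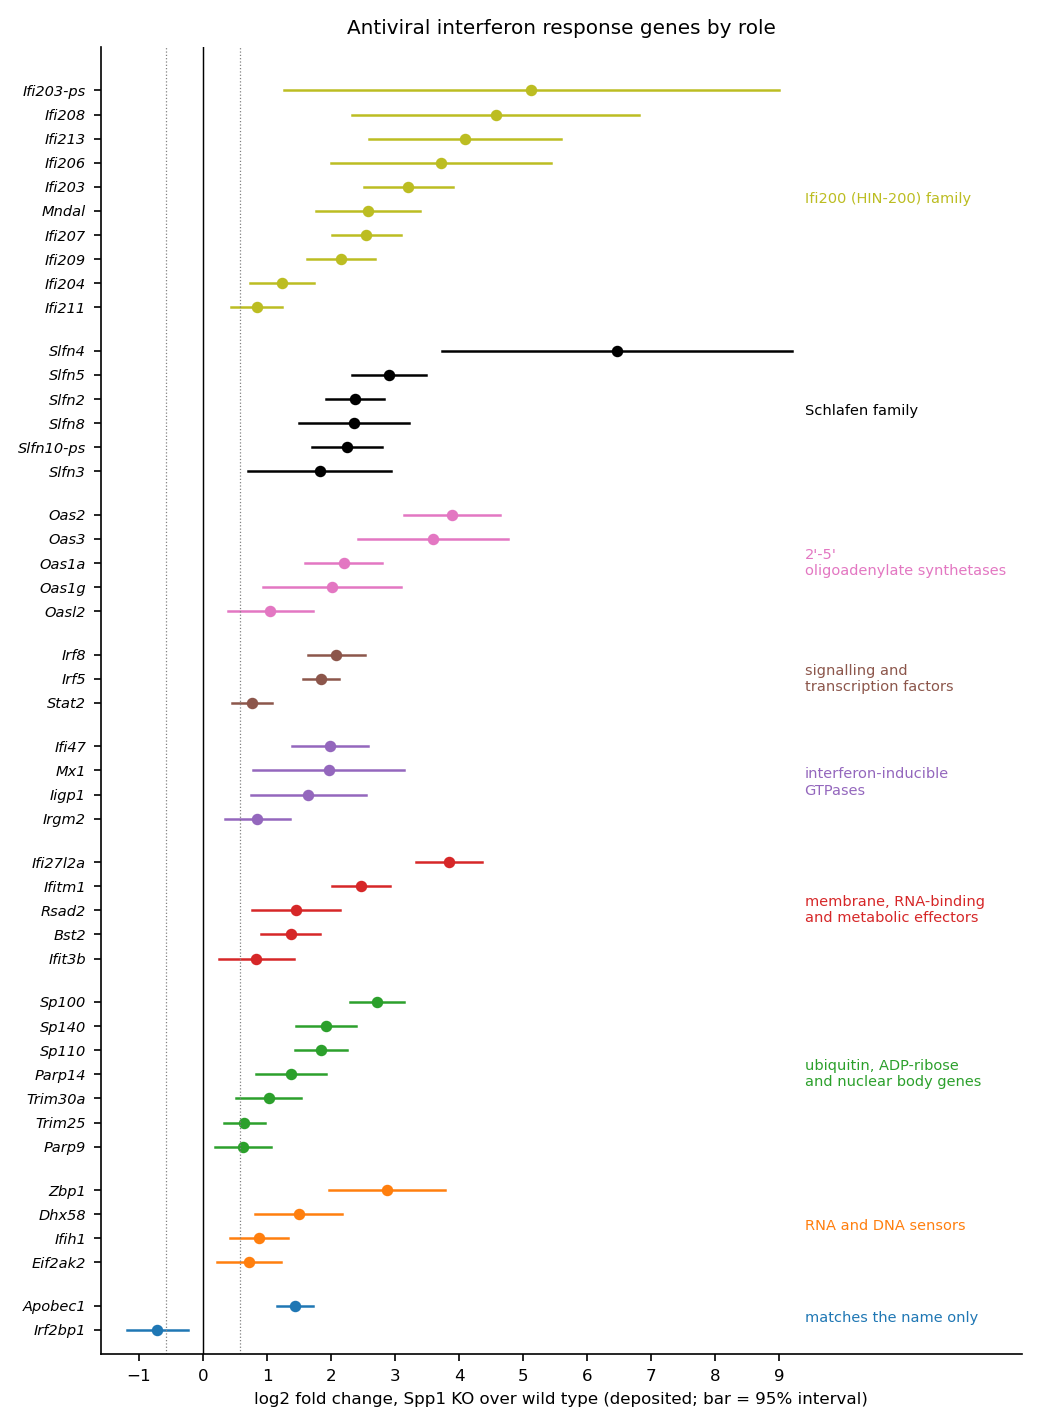
Log2 fold change of Spp1 knockout over wild type for the 46 antiviral interferon response genes, grouped by role. Points are the authors' deposited values, bars are 95% intervals from the deposited standard errors, and dotted lines mark 0.58 in both directions. The values run from -0.72 for Irf2bp1 to 6.47 for Slfn4, and 35 intervals lie wholly to the right of the dotted line.

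The promoters of the members were searched for words of the ISRE and GAS type. RefSeq sequences of build GRCm38.p6, from 250 bases before to 50 bases after the annotated start, were matched by symbol for 35 of the 46 members. An ISRE-type match was GAAA, any 2 bases and GAAA, which reads TTTC, any 2 bases and TTTC on the other strand, and a GAS-type match was TTCNNNGAA, which reads the same on both strands. An ISRE-type match was found for 20 of the 35 members, or 57.1%. It was found for 3.99% of the 27025 genes with a promoter, for 6.29% of the higher listed genes outside the members and for 3.1% of the lower ones. The members were chosen by interferon response names, so part of this contrast follows from the choice of genes. Genes that fit the name rule but had no value analysed here held a match in 18 of 58 cases (31%). A GAS-type match was found for 6 members, or 17.1%, against 9.55% of all genes, and 4 members held both kinds, which shared bases in 1 promoter, that of Bst2. Neighbouring genes with shared promoter sequence, such as Ifi200 genes and the pair Oas1a and Oas1g, were counted separately in these shares. These are matches of letters, and binding was not measured.

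Of the 8 Ifi200 genes with a promoter, 7 held an ISRE-type match, and these matches began at positions -73 to -35 from the annotated start. With a stricter word, GAAAC, any base and GAAA, 0 of these 8 held a match, against 7 of the 35 members (20%) and 0.792% of all genes. The last 80 bases before the start are shown for these 7 genes because the match and some of the bases around it recur between them. Capitals mark the match.
Ifi203 (chr1:173942493-173942572, minus strand): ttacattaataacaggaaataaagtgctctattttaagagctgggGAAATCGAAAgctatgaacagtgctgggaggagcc
Mndal (chr1:173880188-173880267, minus strand): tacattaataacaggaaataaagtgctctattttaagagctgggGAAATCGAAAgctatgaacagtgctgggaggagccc
Ifi206 (chr1:173491319-173491398, minus strand): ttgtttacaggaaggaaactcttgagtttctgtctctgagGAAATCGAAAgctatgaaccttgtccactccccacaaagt
Ifi208 (chr1:173673585-173673664, plus strand): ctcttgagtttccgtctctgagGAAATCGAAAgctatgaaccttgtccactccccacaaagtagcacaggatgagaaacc
Ifi213 (chr1:173599273-173599352, minus strand): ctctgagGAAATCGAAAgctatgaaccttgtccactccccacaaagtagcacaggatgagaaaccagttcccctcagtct
Ifi207 (chr1:173741810-173741889, minus strand): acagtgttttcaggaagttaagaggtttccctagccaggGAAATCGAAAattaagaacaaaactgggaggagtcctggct
Ifi211 (chr1:173913047-173913126, minus strand): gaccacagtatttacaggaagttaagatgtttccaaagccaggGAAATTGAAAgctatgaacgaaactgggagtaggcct
A run of 20 bases, gGAAATCGAAAgctatgaac, was common to Ifi203, Mndal, Ifi206, Ifi208 and Ifi213. A longer run of 47 bases, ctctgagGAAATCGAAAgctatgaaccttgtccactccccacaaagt, was common to Ifi206, Ifi208 and Ifi213. The windows of Ifi203 and Mndal were identical in 79 of 81 aligned columns (97.5%), whereas those of Ifi213 and Mndal were identical in 39%. Ifi203 and Mndal stood at log2 fold changes of 3.21 and 2.58 with overlapping intervals in the authors' deposited table.

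The remaining matches lay at varied distances. The promoters below are shown for the synthetases Oas1a and Oas1g, which form a pair of near copies, for the genes where ISRE-type and GAS-type words stand side by side (Bst2 and Irgm2), and for Stat2 and Ifit3b, in which the word lies on the other strand. Capitals mark ISRE-type matches, and in Bst2 and Irgm2 also the GAS-type match.
Oas1a (chr5:120907526-120907605, minus strand): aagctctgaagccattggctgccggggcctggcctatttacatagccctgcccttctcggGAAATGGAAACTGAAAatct
Oas1g (chr5:120887614-120887693, minus strand): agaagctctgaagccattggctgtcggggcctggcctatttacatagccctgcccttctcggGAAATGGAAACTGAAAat
Bst2 (chr8:71537473-71537672, minus strand): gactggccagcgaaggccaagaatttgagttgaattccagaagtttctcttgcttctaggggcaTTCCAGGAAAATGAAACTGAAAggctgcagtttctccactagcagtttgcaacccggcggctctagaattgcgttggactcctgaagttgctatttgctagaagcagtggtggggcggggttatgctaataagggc
Irgm2 (chr11:58214857-58214976, plus strand): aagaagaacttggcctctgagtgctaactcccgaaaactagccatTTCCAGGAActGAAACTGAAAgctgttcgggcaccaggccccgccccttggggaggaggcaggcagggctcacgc
Stat2 (chr10:128270248-128270327, plus strand): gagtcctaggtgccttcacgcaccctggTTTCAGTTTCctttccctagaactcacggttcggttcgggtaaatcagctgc
Ifit3b (chr19:34607747-34607826, plus strand): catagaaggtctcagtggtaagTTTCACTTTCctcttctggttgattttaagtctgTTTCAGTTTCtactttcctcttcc
Oas1a and Oas1g each held 2 overlapping matches, and a run of 56 bases that contains them, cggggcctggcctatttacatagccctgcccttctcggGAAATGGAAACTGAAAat, was the same in both. Bst2 also held 2 overlapping matches, and its GAS-type word runs into the first of them. Members with a match had a median log2 fold change of 2.11 (n = 20) and members with a promoter but no match one of 1.92 (n = 15), a difference that was not tested. Among genes that fit the name rule in the annotation but had no value analysed here, 18 of 58 promoters (31%) held the ISRE-type word and 13 (22.4%) the GAS-type word.

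**Figure D2:**
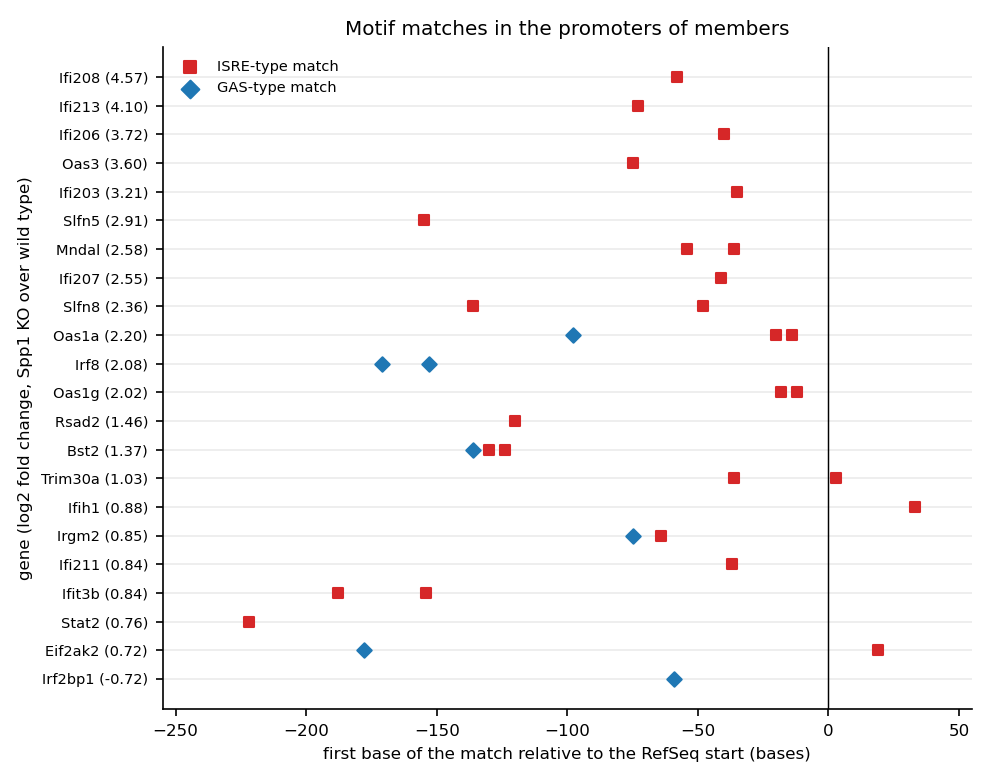
Place of ISRE-type (squares) and GAS-type (diamonds) matches in the promoters of the members that hold one. The x axis gives the first base of the match relative to the RefSeq start, and genes are ordered by log2 fold change of Spp1 knockout over wild type, given in parentheses. The Ifi200 genes have matches between -73 and -35, while those of Stat2 and Ifit3b lie farther upstream.

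At the top of the pathway, the receptors gave no value here. Neither Ifnar1, Ifnar2, Ifngr1 nor Ifngr2 was among the listed genes, and Irf9, a partner of Stat2, was not either. Nothing was read from the lack of a row, which can mean a missed limit or no test. Of 21 interferon ligand genes only Ifnz, which encodes interferon zeta, was listed. In the authors' deposited table it fell by 5.40 (standard error 1.48), with implied means of 0.2 in the knockout and 8.38 in wild type, both low counts.

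Stat2 was higher in the knockout. In the authors' deposited table it had implied means of 1399 in knockout and 826 in wild-type cultures, a log2 fold change of 0.76 (95% interval 0.45 to 1.07, adjusted p = 1.55e-05). Irf8, a transcription factor of the myeloid lineage that microglia need, had implied means of 1477 in knockout and 348 in wild-type cultures in the authors' deposited table. Its log2 fold change of 2.08 (1.63 to 2.54, adjusted p = 6.09e-18) lay above that of Stat2 with no overlap of the intervals. Irf5, which acts downstream of Toll-like receptors, stood at 1.84 (1.56 to 2.13) in the authors' deposited table, with implied means of 735 in knockout and 205 in wild-type cultures. Irf1, Irf2, Irf3, Irf4 and Irf7 had no value here. Irf2bp1, a co-repressor that binds Irf2 and matches the rule only by its name, was the single lower gene. It had implied means of 853 in knockout and 1402 in wild-type cultures in the authors' deposited table, a log2 fold change of -0.72 (-1.19 to -0.24, adjusted p = 0.0137).

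Sensors of viral nucleic acid were higher in 4 of 4 listed genes. Zbp1, which senses Z-form nucleic acid and can start cell death, showed the largest fold change of the 4, with implied means of 184 in knockout and 25 in wild-type cultures in the authors' deposited table and a log2 fold change of 2.88 (1.97 to 3.79, adjusted p = 8.86e-09). Dhx58 encodes Lgp2, a helicase that tunes signalling by other RNA sensors, and had implied means of 325 in knockout and 115 in wild-type cultures, a log2 fold change of 1.49 (0.81 to 2.17) in the authors' deposited table. Ifih1, the sensor Mda5 for long double-stranded RNA, had implied means of 899 in knockout and 489 in wild-type cultures, a log2 fold change of 0.88 (0.43 to 1.33) in the authors' deposited table. Eif2ak2, the kinase PKR that stops translation when it binds double-stranded RNA, had the smallest change of these, 0.72 (0.23 to 1.21, adjusted p = 0.0178), in the authors' deposited table. An antisense gene, Dhx58os, overlaps Dhx58, and the sources used here do not say whether reads were counted by strand.

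The 2'-5' oligoadenylate synthetases are switched on by double-stranded RNA and make short oligoadenylate messengers. All 5 listed members of the family were higher. Oas2 had implied means of 185 in knockout and 12.5 in wild-type cultures in the authors' deposited table, a log2 fold change of 3.89 (3.14 to 4.64, adjusted p = 2.06e-22). Oas3 had implied means of 153 in knockout and 12.7 in wild-type cultures in the authors' deposited table, a log2 fold change of 3.60 (2.43 to 4.77). These were larger than the change of Oasl2, a related protein, whose interval of 0.39 to 1.71 around 1.05 in the authors' deposited table did not reach theirs. Oas1a had implied means of 423 in knockout and 92.4 in wild-type cultures, a log2 fold change of 2.20 (1.6 to 2.79) in the authors' deposited table. Oas1g stood at 2.02 (0.94 to 3.09) in the authors' deposited table, but 57.6% of the 50-base words of Oas1a's longest transcript also occur in Oas1g, so reads of this pair are hard to assign. The synthetases lie on chromosome 5 with Spp1, Oasl2 at 10.5 Mb and the other 4 at 16.3 to 16.5 Mb from its end. The strain name gives 129S6 as the donor background of the allele, and the part of donor sequence near Spp1 in these values was not tested.

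The Ifi200 family binds DNA or acts in the nucleus, and human IFI16 and mouse Aim2 belong to it. All 10 listed members were higher, with a median log2 fold change of 2.89. Ifi203 had implied means of 364 in knockout and 39.4 in wild-type cultures in the authors' deposited table, a log2 fold change of 3.21 (2.51 to 3.91, adjusted p = 9.45e-18). Ifi207 had 820 in knockout and 140 in wild-type cultures, a log2 fold change of 2.55 (2.01 to 3.1) in the authors' deposited table. Mndal and Ifi209 stood at 2.58 (1.77 to 3.39) and 2.16 (1.62 to 2.69) in the authors' deposited table. The smallest values were those of Ifi204 at 1.23 (0.73 to 1.73), and Ifi211 at 0.84 (0.44 to 1.24) in the authors' deposited table. Their intervals lay below that of Ifi203. The largest values belonged to weakly counted genes. Ifi208 had implied means of 33.5 in knockout and 1.41 in wild-type cultures, a log2 fold change of 4.57 (2.33 to 6.81) in the authors' deposited table. Ifi213 had 53.3 in knockout and 3.12 in wild-type cultures, a log2 fold change of 4.10 (2.6 to 5.59) in the authors' deposited table. Ifi206 had 63.6 in knockout and 4.84 in wild-type cultures, a log2 fold change of 3.72 (1.99 to 5.44) in the authors' deposited table. Ifi203-ps, a pseudogene with a mean normalized count of 2.86 and a log2 fold change of 5.13 (1.26 to 9.0) in the authors' deposited table, had the widest interval of the members. Aim2, which is no member, was higher by 2.65 (standard error 0.31) in the authors' deposited table.

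These genes form a tandem array on chromosome 1 between 173468485 and 174031810 (GRCm38), where 10 of 13 annotated genes that fit the rule were listed. Ifi211 and Ifi203 both overlap Mndal on the same strand, and 72.9% of the 50-base words of Ifi211 occur in other genes, so single values in this array are uncertain. The annotated array holds 0 other protein-coding genes.

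Schlafen proteins regulate growth of immune cells, and human SLFN11 restricts viruses by acting on transfer RNA. All 6 listed members were higher, with a median log2 fold change of 2.37. Slfn2, which is needed for quiescence of T cells and monocytes in mice, had implied means of 722 in knockout and 140 in wild-type cultures in the authors' deposited table, a log2 fold change of 2.37 (1.92 to 2.83, adjusted p = 9.56e-23). Slfn5 had 622 in knockout and 83 in wild-type cultures, a log2 fold change of 2.91 (2.32 to 3.49) in the authors' deposited table. Slfn8 had 458 in knockout and 89.3 in wild-type cultures, a log2 fold change of 2.36 (1.5 to 3.22) in the authors' deposited table. Slfn3 and the pseudogene Slfn10-ps stood at 1.82 and 2.24 in the authors' deposited table, and all 3 intervals overlapped those of Slfn2 and Slfn5. Slfn4 had the highest fitted value of all members, 6.47, but an implied mean of only 14.6 in knockout and 0.16 in wild-type cultures in the authors' deposited table. With wild type this close to 0 the size of its fold change is poorly determined, and the lower end of its interval was 3.74. The Schlafen genes lie together on chromosome 11 between 82942341 and 83286726 (GRCm38), with 6 of 10 annotated genes that fit the rule listed.

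**Figure D3:**
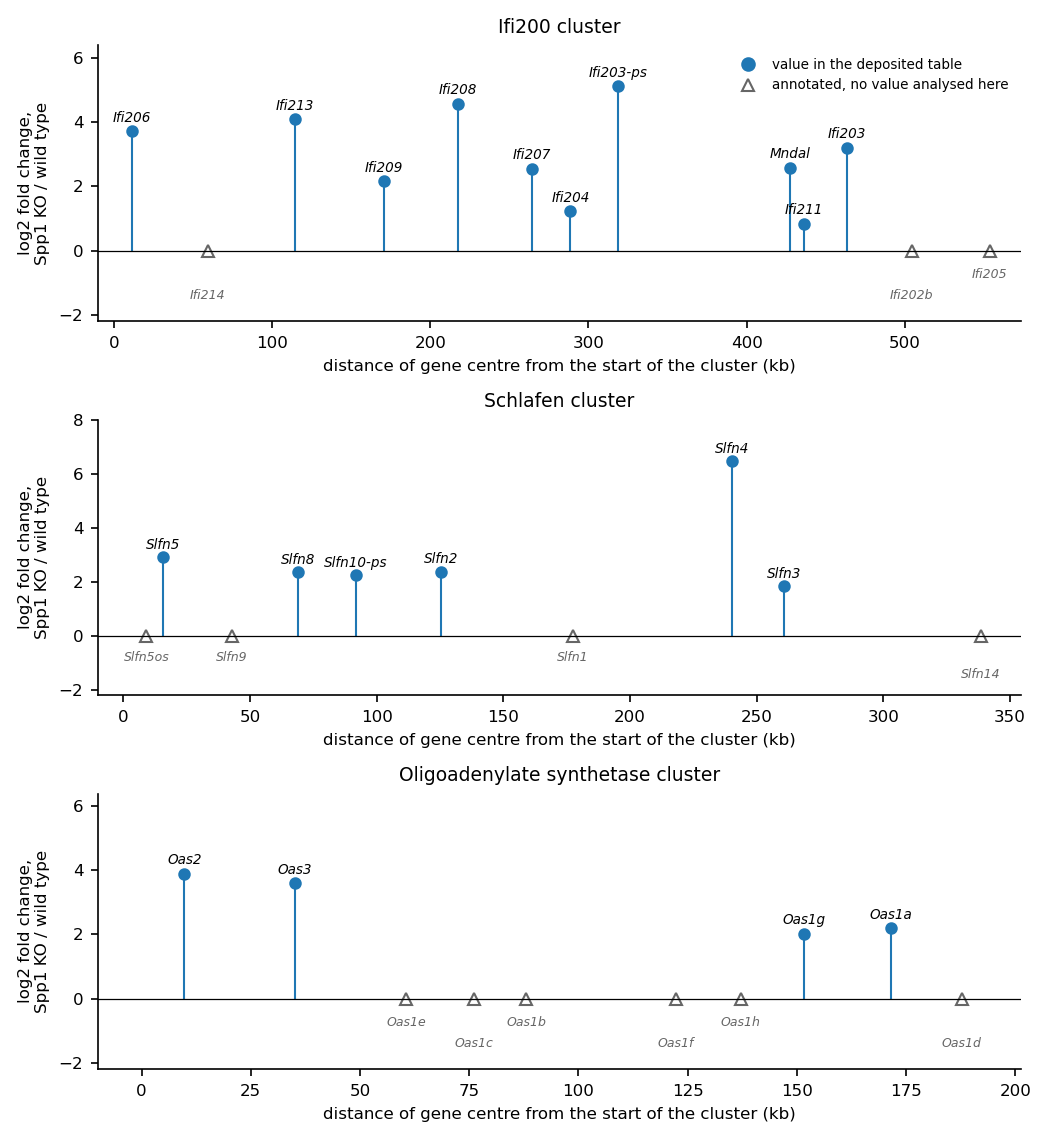
Log2 fold change of Spp1 knockout over wild type along the Ifi200, Schlafen and oligoadenylate synthetase clusters, by distance of each gene's centre from the start of its cluster in kb. Filled points are values of the authors' deposited table and open triangles are annotated genes with no value analysed here. All 10, 6 and 4 listed genes lie above 0.

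Interferon-inducible GTPases were higher in 4 of 4 listed genes. Ifi47, an immunity-related GTPase, had implied means of 177 in knockout and 44.7 in wild-type cultures in the authors' deposited table, a log2 fold change of 1.98 (1.39 to 2.57, adjusted p = 9.82e-10). Iigp1, which acts on the vacuoles of intracellular parasites, had 216 in knockout and 69.1 in wild-type cultures, a log2 fold change of 1.65 (0.75 to 2.55) in the authors' deposited table. Irgm2, which overlaps its relative Igtp on the same strand, stood at 0.85 (0.34 to 1.36) in the authors' deposited table. Mx1, a dynamin-like GTPase against influenza virus that carries a known loss-of-function allele in C57BL/6, had implied means of 34.7 in knockout and 8.91 in wild-type cultures, a log2 fold change of 1.96 (0.78 to 3.14) in the authors' deposited table. Around Ifi47 on chromosome 11, 7 of the 8 other protein-coding genes up to Irgm1 were listed. All 7 were higher, among them Tgtp1, another immunity-related GTPase, and Olfr56, which overlaps Ifi47 on the same strand.

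The effectors at membranes and on RNA were higher in 5 of 5 listed genes. Ifi27l2a, a small interferon-induced membrane protein, had implied means of 641 in knockout and 44.7 in wild-type cultures in the authors' deposited table. Its log2 fold change of 3.84 (3.32 to 4.36, adjusted p = 4.88e-45) had the smallest adjusted p of all members. Ifitm1, which blocks entry of viruses, had 411 in knockout and 74.3 in wild-type cultures, a log2 fold change of 2.47 (2.01 to 2.93) in the authors' deposited table. Ifitm2 and Ifitm3, its neighbours, had no value here. Rsad2, the enzyme viperin that makes a chain-terminating nucleotide, had 241 in knockout and 87.7 in wild-type cultures, a log2 fold change of 1.46 (0.77 to 2.14) in the authors' deposited table. Bst2, tetherin, which holds budding virions on the cell, had implied means of 2256 in knockout and 874 in wild-type cultures, a log2 fold change of 1.37 (0.91 to 1.83) in the authors' deposited table. Ifit3b was higher by 0.84 (0.24 to 1.43, adjusted p = 0.0228) in the authors' deposited table, and 44.5% of its 50-base words also occur in Ifit3. Ifit1, Ifit2 and Ifit3 had no value here, nor had Isg15 and its protease gene Usp18, all of them widely used markers of a type I interferon response.

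Genes of nuclear bodies, ubiquitin ligases and ADP-ribosyltransferases were higher in 7 of 7 listed genes. Sp100, Sp110 and Sp140 encode nuclear body proteins and lie within 133 kb of each other on chromosome 1. Sp100 had implied means of 377 in knockout and 57.4 in wild-type cultures, a log2 fold change of 2.72 (2.3 to 3.14) in the authors' deposited table. Sp140 had 369 in knockout and 97.2 in wild-type cultures, a log2 fold change of 1.92 (1.45 to 2.39) in the authors' deposited table. Sp110 had 244 in knockout and 68 in wild-type cultures, a log2 fold change of 1.84 (1.43 to 2.25) in the authors' deposited table. Both smaller values are uncertain, since 53.8% of the 50-base words of Sp110 and 63.1% of those of Sp140 occur in other annotated transcripts. Parp14 stood at 1.37 (0.83 to 1.91) and its neighbour Parp9 at 0.63 (0.19 to 1.07) in the authors' deposited table. Trim30a had a log2 fold change of 1.03 (0.52 to 1.54), and Trim25, the ubiquitin ligase of the Rig-I pathway, one of 0.64 (0.32 to 0.97) in the authors' deposited table. Apobec1, which edits apolipoprotein B mRNA and matches the rule by its name, had implied means of 1869 in knockout and 692 in wild-type cultures in the authors' deposited table, a log2 fold change of 1.43 (1.15 to 1.71).

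The members differed in size of change along with their counts. The 10 higher members with a mean normalized count under 100 had a median log2 fold change of 3.80, the 22 between 100 and 500 one of 2.22, and the 13 at 500 or more one of 1.03. Over all higher genes of the table these medians were 2.12 (n = 531), 1.3 (n = 658) and 0.91 (n = 802). A gene with a large standard error passes the authors' limit on adjusted p only with a large fold change. Among weakly counted members the standard error was 1.39 for Slfn4 and 1.14 for Ifi208. The part of this limit in the fall across the bins was not tested. Counts also depend on transcript length, so these bins say how well a gene was measured and not how strongly it was expressed.

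**Figure D4:**
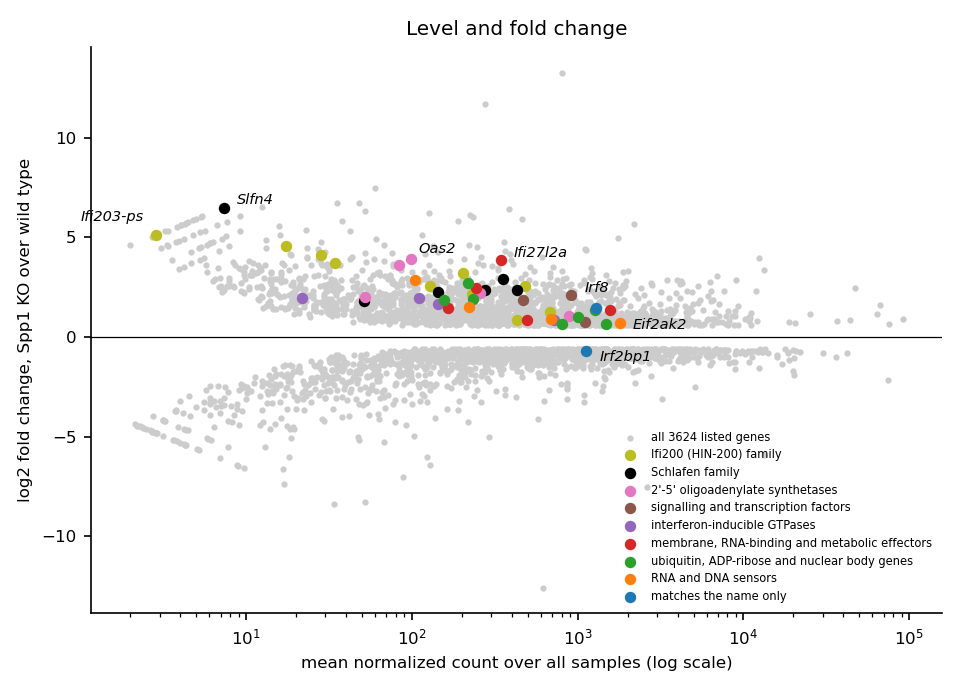
Log2 fold change of Spp1 knockout over wild type against the mean normalized count over all samples (log scale). Grey points are all 3624 listed genes and coloured points the 46 members by role. Members span counts from 2.86 to 1797, and Irf2bp1 is the single member below 0.

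Listed genes of the same pathway outside the rule were also mostly higher. Of 21 genes for nucleic acid sensing and its adaptors 10 were listed, and all 10 were higher, with a median log2 fold change of 2.07. The endosomal receptors Tlr8 and Tlr9 and their chaperone Unc93b1 stood at 4.03 (standard error 0.23), 2.76 (0.31) and 2.11 (0.14) in the authors' deposited table. Of 54 other interferon-induced genes 29 were listed and all 29 were higher, with a median of 1.67. Serping1, the C1 inhibitor, stood at 2.35 (standard error 0.18), the chemokine gene Ccl7 at 2.85 (0.23), Ms4a6b at 2.28 (0.24) and Lgals9 at 1.3 (0.15) in the authors' deposited table. Receptor-proximal signalling gave 2 listed genes of 11, both higher, the phosphatase gene Ptpn6 at 2.24 (0.2) and Il10rb at 0.93 (0.13) in the authors' deposited table. The guanylate-binding proteins, listed in 9 of 11 cases, had a median of 1.48, and the genes of class I presentation, 10 of 19, one of 1.27, with all listed members higher in both. The class I list shares Psmb8, Psmb9 and Nlrc5 with the other interferon-induced genes. These medians were not tested against that of the members. Over all protein-coding gene names of the annotation, 16.1% were listed. The annotation holds 20 of the 21 sensing names, 51 of the 54 other interferon-induced names and 18 of the 19 class I names.

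Microglia and macrophage markers rose alongside. Of 24 such markers 22 were listed, against 16.1% of all protein-coding gene names. All 22 were higher, where over all listed genes 54.9% were higher and 45.1% lower. Their median log2 fold change was 2.27, against 1.31 over the higher listed genes. The summed implied mean of the 22 markers was 199819 in knockout and 42458 in wild-type cultures. Adgre1, which encodes F4/80, stood at 2.85 and the mannose receptor gene Mrc1 at 4.36 in the authors' deposited table. The lowest implied mean of a listed marker was 53.6, in wild type. An ISRE-type match was found in 1 of 16 promoters of these markers (6.25%), against 20 of 35 for the members. The members were chosen by interferon response names, and 18 of 58 promoters of unlisted genes that fit the rule also held a match. This contrast therefore follows in part from the choice of genes. Whether the members rose separately from the markers was not tested. Astrocyte markers showed no common direction, with 3 higher and 3 lower of 6 listed among 12. Fabp7 and S100b stood at -1.23 and -1.82, and Aqp4 and Aldoc at 1.15 and 1.18 in the authors' deposited table. Gfap, which marks astrocytes, had implied means of 91923 in knockout and 58314.5 in wild-type cultures in the authors' deposited table. Of 14 markers of lymphocytes and plasmacytoid dendritic cells only Bst2, itself a member, was listed. Markers of fibroblasts and meninges were higher in all 8 listed cases of 11, those of endothelial cells in 2 of 4, and those of neurons (6 of 10 listed) and of oligodendrocytes and Schwann cells (10 of 10) lower in all. In bulk RNA, more cells of a type and more RNA per cell cannot be told apart, and the part of these cell types in the interferon result was not tested.

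**Figure D5:**
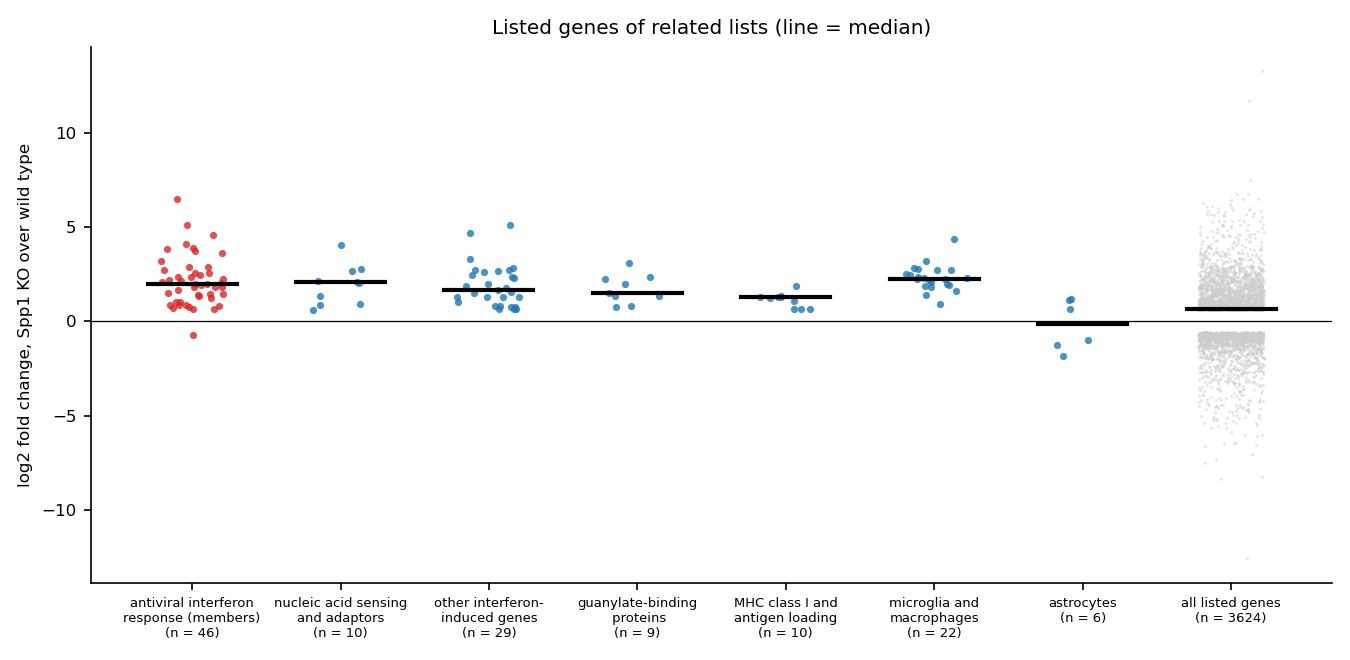
Log2 fold change of Spp1 knockout over wild type for the listed genes of each list, with the median as a black line. The median is 1.97 for the members, 2.07 for nucleic acid sensing, 1.67 for other interferon-induced genes, 1.48 for guanylate-binding proteins, 1.27 for class I presentation, 2.27 for microglia and macrophages, -0.16 for astrocytes and 0.66 for all listed genes. The nucleic acid sensing list leaves out Cgas and Sting1, which were searched under older names only.

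In the annotation, 116 genes fit the name rule, of which 46 were listed. Among protein-coding genes the rule fitted 108, and 44 of them (40.7%) were listed, against 16.1% of all 21924 protein-coding gene names. Not every annotated gene is expressed in these cultures, so this share is a description of the table. Of the members, 25 lie in 5 clusters of neighbouring genes, on chromosomes 1, 5, 11 and 16, and share sequence or position with each other.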

How the data were processed

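RNA of 4 Spp1 knockout and 4 wild-type samples of cultured astrocytes was sequenced. Tools named in the submitters' processing notes were CASAVA 1.8, STAR 2.7 and DESeq2 1.30.1, with build GRCm38. Their roles, the annotation, the counter and any filter were not stated. Per the file headers, the authors deposited per gene a mean normalized count (a signal value), a log2 fold change and its log2 standard error, a Wald statistic (a score), and raw and adjusted p-values. The table had 0 columns for single samples, so the authors' adjusted p stood in for a count fit, and precision is given by the deposited standard errors. Intervals at 95% use the normal quantile.

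Members and lists were chosen with earlier results of these data known. By rule, both group levels are given for the 3 largest absolute fold changes per role at a mean of at least 10, for members against the majority direction, and for Stat2 and Irf genes. Other lists give up to 4 genes by adjusted p, with a few genes not reported here. Other named genes, such as Aim2 and Gfap, and levels of further members were chosen after their values were seen.

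Gene positions, overlaps and shared 50-base words (of each longest transcript, against the transcripts of all other genes) came from GENCODE M21 (GRCm38), and promoters from RefSeq (GRCm38.p6). Alternatives changed the thresholds, the members counted and the motifs. Python 3.11.15, pandas 2.3.3, scipy 1.17.1 and Biopython 1.88 were used, and the functions were tested on simulated data.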

Additional observations from a re-analysis of the deposited data

How the results depend on the processing

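Of 45 higher members, 35 to 44 were left under the stricter limits on adjusted p, fold change, interval or mean count, without the names that match the rule only, and without chromosome 5, which carries Spp1. These alternatives, and the others that count members, only remove genes from those listed. No member could change direction under them, so they do not test the direction. Without the 5 members that share most of their 50-base words with the other genes as a whole, an alternative chosen after seeing the data, 40 were higher. With 1 member per gene cluster, the one with the highest mean count, 25 were higher and the median log2 fold change was 1.45 in place of 1.97. The count is lower because fewer genes were counted, and the cause of the lower median was not tested, though this choice keeps highly counted members, whose fold changes were smaller. The inverse-variance weighted mean was 1.61. Irf2bp1, the single lower member, was no longer counted (0 lower) at adjusted p of 0.01 or less, at a fold change of 1 or more on the log2 scale, with the whole interval beyond 0.58, and without names that match the rule only. The ISRE-type share of 57.1% became 20% (for Ifi200 genes 0 of 8 in place of 7 of 8) with the stricter word GAAAC, any base and GAAA, against 0.792% of all genes. It became 42.9% in the last 150 bases of the promoter window, which ends 50 bases after the start. The GAS-type share of 17.1% became 5.71% with the stricter word TTCCNGGAA, against 1.35% of all genes. Both stricter words allow fewer matches by construction.

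No paired analysis was possible because the table holds no values of single samples, and leaving out replicates was not run for the same reason. Genes that missed either limit and outlying libraries are out of reach.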
